A study of Mus musculus with 6 samples.

Results

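Expression of 9 lymphocyte marker genes was compared between sham and tail-suspended mouse hearts. Cd3e, Cd3g, Cd4 and Cd8a mark T cells, Cd79a, Cd79b and Ms4a1 mark B cells, and Nkg7 and Gzma mark natural killer cells and cytotoxic T cells. The genes were taken by name from the probes of the array that are not controls. They are 9 of 28909 gene names and 13 of 55681 probes. Heart muscle came from male C57BL/6 mice, 3 left unsuspended as sham and 3 suspended by the tail for 28 days, a model of weightlessness that unloads the hindlimbs. Both groups were kept in the same space and fed alike, and the labels name no transgene or drug in either. The protocol puts the mice at 10 weeks of age when suspension began, whereas the age label reads 11 weeks for every mouse, and these statements are not compatible. Labelled RNA was hybridised to 1-colour Agilent arrays, 1 array per replicate, 3 per group.

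T cells read antigen through a receptor whose signal is carried by the CD3 chains, with CD4 or CD8 as co-receptor. B cells read it through a membrane immunoglobulin that signals through the CD79A and CD79B pair. Natural killer cells and cytotoxic T cells kill target cells with granzymes released from granules. A healthy heart holds few lymphocytes beside its muscle, endothelial and connective tissue cells and macrophages, and a part of them lies in blood vessels.

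Probes of 1 gene differed in whether they gave a readable signal, so the last 30 of their 60 bases are given here for the genes with a readable probe. The first set holds the 6 probes with a signal well above background on all 6 arrays, with the AATAAA polyadenylation hexamer in capitals.

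Cd3e A_55_P2156229: taatgcaaaaggcAATAAAgtgtattggct
Cd4 A_55_P2013655: acagaaaAATAAAggctataAATAAAatgc
Cd79a A_55_P2137496: gtgatAATAAAtccttcccaaagcaaaaaa
Cd79b A_51_P342652: agaacacactggcttcaagaggagtctagg
Nkg7 A_55_P2009582: ccaccttgccttatccttcattggtttctt
Gzma A_55_P2094060: gtctgatcacaAATAAAatcaacttgaatg

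The second set holds the other probe of Cd4, Cd79a and Nkg7, which did not reach that signal, so that 2 probes of 1 gene can be compared.

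Cd4 A_52_P383089: gcagtgtctactgagtgaaggtgataaggt
Cd79a A_66_P120987: gtacttacctccgcgtgcgcaatccagtcc
Nkg7 A_51_P499195: ccagtatgagatggagccagactccatttt

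The hexamer AATAAA, which marks the 3′ end of most messenger RNAs, was searched on the strand of the probe only. It stood in 4 of the 6 readable probes and in 0 of the other 7 member probes, against 10.1% of all probes on the array and 12.3% of the probes tested. A match describes the probe's letters and was not tested as a reason for its signal. On mm9, the build of the array files, the readable Cd4 probe lies at chr6:124814711-124814770 on the minus strand, 2935 bases from the other Cd4 probe at chr6:124817706-124817765. The readable Cd79a probe lies at chr7:25686823-25686882 on the plus strand. The other Cd79a probe is split over chr7:25684357-25684614, a span of 258 bases for a probe of 60. Both Nkg7 probes lie on the plus strand of chromosome 7, at chr7:50693530-50693589 and chr7:50693148-50693207. The remaining readable probes are those of Cd3e at chr9:44806828-44806887, Cd79b at chr11:106172780-106172839 and Gzma at chr13:113884035-113884094, all on the minus strand. The exon that each probe covers was not given in the sources used here.

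Across the arrays, 50.9% to 53.4% of probes were well above background, and the lowest processed intensity with that call was 14.0 to 19.5 in arbitrary units. Levels are given as log2 intensity relative to the 75th percentile of the array, whose intensity was 302 to 376. All 8 cardiomyocyte genes, which define the labelled tissue, were well above background on all arrays. Their summed level relative to the percentile was 4273 to 4574 in sham and 3986 to 4074 in tail-suspended hearts. Among them Myh6, the main heavy chain of adult mouse ventricular myosin, stood at 9.53 ± 0.13 in sham and 9.43 ± 0.16 in tail-suspended hearts, and Tnnt2, cardiac troponin T, at 9.33 ± 0.06 and 9.25 ± 0.04 (log2 level, SD, n = 3 each). The 3 mice per group set the precision of every comparison.

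Of the 9 markers, 6 had a probe well above background on all 6 arrays, and these were Cd3e, Cd4, Cd79a, Cd79b, Nkg7 and Gzma. Cd3g, Cd8a and Ms4a1 had none that could be tested. All 6 readable markers had a lower mean level in tail-suspended than in sham hearts, with log2 fold changes from -0.86 to -0.12 and a median of -0.38. The median over 17138 tested genes was -0.01, and 51.7% of them had a negative value. By limma with Benjamini-Hochberg adjustment over all tested probes, 1 of the 6 was lower, Cd79a, and 0 were higher; at an unadjusted p under 0.05, 2 were lower, Cd79a and Cd4, and 0 higher. Over all tested genes, 10.5% were lower and 10.6% higher by limma at the adjusted threshold. The share at the unadjusted limma threshold is not given here, so the unadjusted counts of markers and lists have no baseline. By the test of the paper's methods, 4696 of 28030 tested probes were lower and 4810 higher at its unadjusted threshold. The groups were apart, with every tail-suspended array below every sham array, for 2 of the 6, Cd4 and Cd79a. Of all tested genes 24.2% were apart in that direction and 22.2% in the other. An exact permutation test of 3 against 3 arrays cannot give a two-sided p below 0.1. In whole heart tissue, fewer cells of a type and less RNA per cell cannot be told apart.

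**Figure D1:**
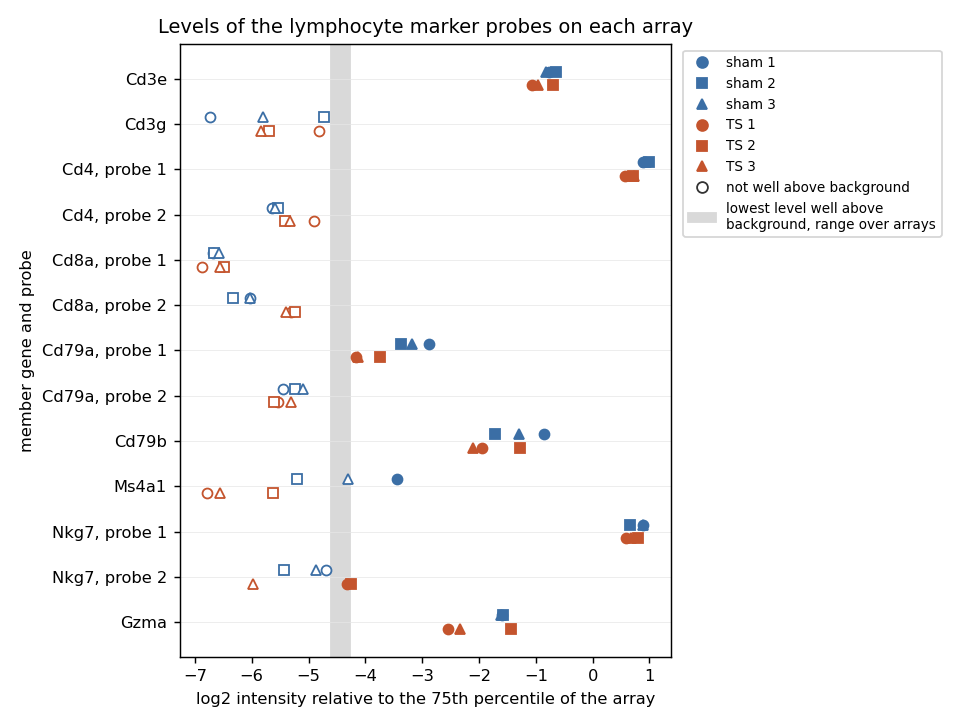
Level of each of the 13 probes of the 9 markers on each array, as log2 intensity relative to the 75th percentile of the array; sham arrays are blue, tail-suspended (TS) arrays orange, and open symbols were not well above background. The 6 readable probes lie to the right of the grey band, which spans the lowest level called well above background on any array (-4.60 to -4.27), and the groups are apart there only for Cd4 probe 1 and Cd79a probe 1.

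Among the T cell markers, Cd3e and Cd4 were readable, and neither passed the threshold. Cd3e encodes the epsilon chain of CD3, present in every T cell receptor complex. Its processed intensity was 188, 205 and 171 in the sham and 163, 231 and 192 in the tail-suspended arrays. The groups overlapped, with the second tail-suspended array above all sham arrays before scaling. On the scaled log2 level, Cd3e stood at -0.74 ± 0.09 in sham and -0.91 ± 0.19 in tail-suspended hearts (SD, n = 3 each). The log2 fold change was -0.17 (SE 0.12, 95% interval -0.45 to 0.12) with a limma adjusted p of 0.348.

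Cd4, the co-receptor of helper T cells that some macrophages and dendritic cells also carry, had intensities of 592, 636 and 581 in sham and 504, 614 and 621 in tail-suspended hearts. Before scaling the groups overlapped. Relative to the 75th percentile, the log2 levels were 0.88, 0.99 and 0.95 in sham against 0.56, 0.71 and 0.73 in tail-suspended hearts. After scaling all 3 tail-suspended arrays thus lay below all 3 sham arrays, so the separation rests on the scaling. The log2 fold change was -0.27 (SE 0.09, 95% interval -0.48 to -0.06), the exact two-sided permutation p was 0.1, and the limma adjusted p of 0.0718 did not pass. With array weights, which give less influence to arrays that deviate more, it reached an adjusted p of 0.0392.

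The other Cd4 probe, spotted 10 times per array, read 6.47, 6.91 and 6.28 in sham and 11.3, 8.82 and 9.40 in tail-suspended hearts. All of these were below the lowest intensity called well above background on any array. On no array were more than 4 of its 10 spots well above background, and the 2 Cd4 probes leaned in opposite directions. Its values give a bound on that probe and no fold change.

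Cd8a, the alpha chain of the co-receptor of cytotoxic T cells, was not well above background on any array with either probe. Its probe of 10 spots read 4.91, 3.96 and 4.59 in sham and 8.63, 10.0 and 8.94 in tail-suspended hearts, the latter all higher. Tested without the filter on dim probes, this probe was 0.83 higher on the log2 scale with a limma adjusted p of 0.0303. No level can be given for it, since all 6 values lie below the background limit. The other Cd8a probe read 2.91 to 4.21 over the 6 arrays.

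Cd3g, the gamma chain of CD3, read 3.03, 12.1 and 5.41 in sham and 12.0, 7.27 and 6.57 in tail-suspended hearts. It too was below the limit on all arrays, and the groups overlapped.

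Among the B cell markers, Cd79a was lower in tail-suspended hearts. It encodes the alpha chain of the signalling pair of the B cell receptor. The readable probe had intensities of 43.8, 31.0 and 33.1 in sham and 19.1, 28.2 and 21.4 in tail-suspended hearts. Every tail-suspended array lay below every sham array, before as well as after scaling. The log2 level was -3.14 ± 0.25 in sham and -4.01 ± 0.24 in tail-suspended hearts (SD, n = 3 each). This is a log2 fold change of -0.86 (SE 0.17, 95% interval -1.27 to -0.46), 1.82-fold lower, with a limma adjusted p of 0.0196 and an exact two-sided permutation p of 0.1. The direction was the same under all 19 alternatives of processing and test, with log2 fold changes of -1.01 to -0.44. Alternatives that change only the test, the filter or the replicate block return the same -0.86, so their direction was fixed in advance. All alternatives read the same probe. Of the 19, 12 had a p under 0.05, adjusted except for the test of the paper's methods at its unadjusted threshold. With Benjamini-Hochberg adjustment that test did not pass for Cd79a. A 2-fold minimum, not counted among the 19, left 0 markers lower.

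The call on Cd79a was close to its limits in signal and in replicates. Its intensities lie not far above the lowest that was called well above background, and normexp background correction put the log2 fold change at -0.44. Leaving out 1 array at a time gave -1.0 to -0.73, and the limma adjusted p rose to 0.0531 without the first sham array, 0.0582 without tail-suspended array 1 and 0.0674 without tail-suspended array 3. The first slide row held all 3 sham arrays and 1 tail-suspended array, and the other 2 tail-suspended arrays lay in row 2. With the row as a block, the log2 fold change was -1.01 with an adjusted p of 0.109. The split Cd79a probe read 7.33, 8.43 and 8.77 in sham and 7.36, 7.72 and 9.48 in tail-suspended hearts. It was below the background limit on all arrays, and gave no second reading of the gene. The readable probe, on which the only call among the markers rests, was not matched to RefSeq by its record, whereas the split probe was.

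**Figure D2:**
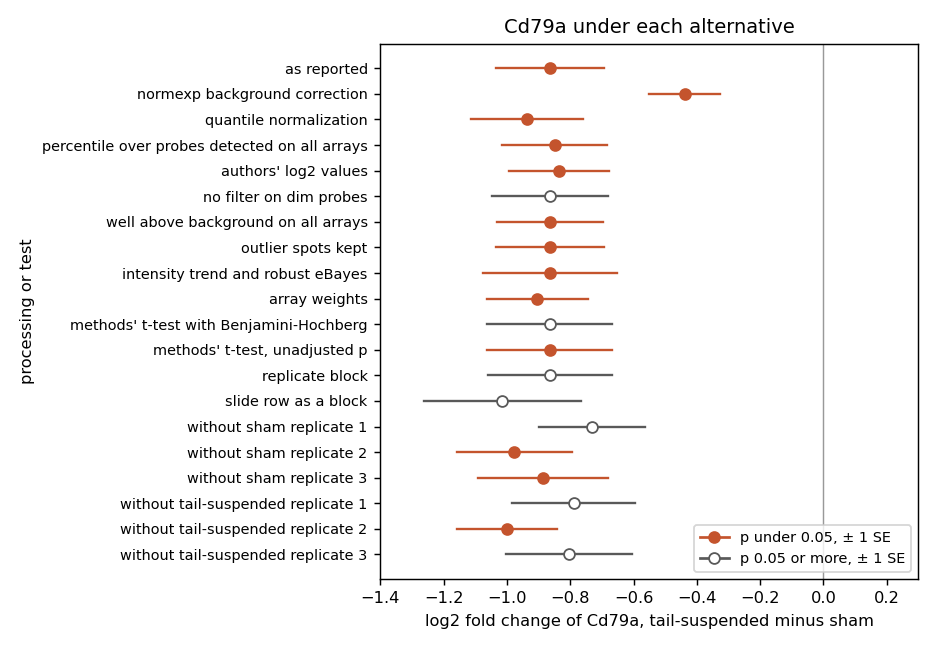
Log2 fold change of Cd79a (tail-suspended minus sham) with 1 SE on each side, as reported and under each of 19 alternatives; filled orange symbols have a p under 0.05, adjusted except where the label says unadjusted. All values are negative, from -1.01 to -0.44, and 7 of the 19 alternatives have a p of 0.05 or more.

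Cd79b, which encodes the partner chain, read 179, 96.7 and 123 in sham and 87.9, 156 and 87.4 in tail-suspended hearts. Tail-suspended arrays 1 and 3 lay below all sham arrays, and array 2 lay between them. The log2 fold change was -0.49 (SE 0.29, 95% interval -1.18 to 0.20), and the limma adjusted p of 0.261 did not pass. Leaving out 1 array moved it from -0.27 without sham array 1 to -0.74 without tail-suspended array 2, and neither passed. Over the 6 arrays Cd79a and Cd79b had a Pearson r of 0.85, and of 0.98 for their deviations from the group means. The 2 genes share the scaling of each array.

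Ms4a1, which encodes the B cell surface protein CD20, read 29.6, 8.70 and 15.2 in sham and 3.10, 7.60 and 3.97 in tail-suspended hearts. It was well above background on the first sham array alone, 1 of 6 arrays, and was therefore not tested. All tail-suspended values were below all sham values, but with 5 of 6 readings not well above background no fold change can be given. Tested without the filter, its limma adjusted p was 0.0969.

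The markers of natural killer and cytotoxic cells did not pass the threshold. Nkg7 encodes a membrane protein of cytotoxic granules. It read 593, 503 and 554 in sham and 509.6, 652 and 601 in tail-suspended hearts, and the groups overlapped. The log2 fold change was -0.12 (SE 0.11, 95% interval -0.37 to 0.13) with a limma adjusted p of 0.443. The other Nkg7 probe was well above background on the first and second tail-suspended arrays only, at 17.1 and 19.7, and read 5.96 to 12.5 on the other 4. The Nkg7 probes lie 322 bases apart. Whether the readable probes of Nkg7, Cd4 and Cd3e report only these transcripts was not tested.

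Gzma, which encodes the serine protease granzyme A, had intensities of 107, 107 and 98.6 in sham and 58.2, 139 and 74.0 in tail-suspended hearts. The sham arrays lay close together, and the tail-suspended arrays lay on both sides of them. On the log2 scale the level was -1.59 ± 0.02 in sham and -2.11 ± 0.59 in tail-suspended hearts (SD, n = 3 each). The log2 fold change was -0.52 (SE 0.27, 95% interval -1.17 to 0.14) with a limma adjusted p of 0.214. Without the second tail-suspended array it was -0.85 with an adjusted p of 0.0073, and with array weights -0.72 with an adjusted p of 0.0402. Those were the only 2 of 19 alternatives in which Gzma passed. With any other array left out, its limma adjusted p was 0.311 to 0.467.

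**Figure D3:**
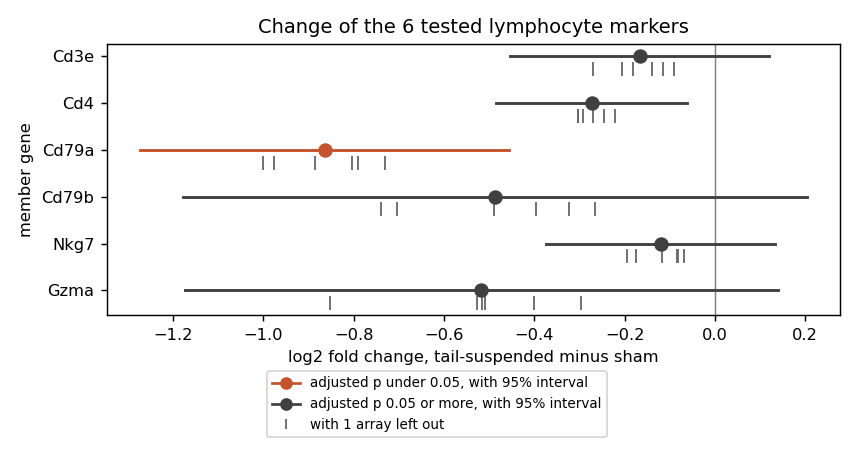
Log2 fold change (tail-suspended minus sham) of the 6 readable markers with its 95% interval, and small ticks for the values with 1 array left out. All 6 estimates lie below 0, Cd79a at -0.86 is the only one with a limma adjusted p under 0.05, and the ticks of Gzma spread most widely, from -0.85 to -0.30.

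Array by array, the second tail-suspended heart differed from the other 2 of its group. The median of the 6 markers, each set against its own sham mean, was -0.52 on the first, 0.00 on the second and -0.49 on the third tail-suspended array. On the sham arrays it was 0.04, -0.07 and -0.01. On the second tail-suspended array Cd3e, Cd79b and Gzma were 0.04, 0.02 and 0.15 above their sham means, whereas Cd4 and Cd79a were 0.23 and 0.59 below. Over the 6 arrays all 15 pairs of readable markers had a positive Pearson r, from 0.43 to 0.94. Within groups, 13 of the 15 stayed positive, and the highest were Cd79a with Cd79b at 0.98 and Cd3e with Gzma at 0.90. These values describe 6 arrays, and the genes of a pair share each array's scaling.

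The summed level of the red cell genes relative to the 75th percentile was 458 to 744 in sham, and 112, 369 and 164 in tail-suspended hearts, the second the highest of its group. Hba-a1, an alpha globin, made up 64.1% of that sum and had a log2 fold change of -1.50 with a limma adjusted p of 0.0506. Of the tested red cell genes 5 had a negative value and 1 a positive one, Ahsp, the chaperone of alpha haemoglobin, named after its values were seen, at 0.69, and 0 of the 6 tested red cell genes passed, while 4 were lower at an unadjusted limma p under 0.05. The part of residual blood in the values of the lymphocyte markers was not tested.

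**Figure D4:**
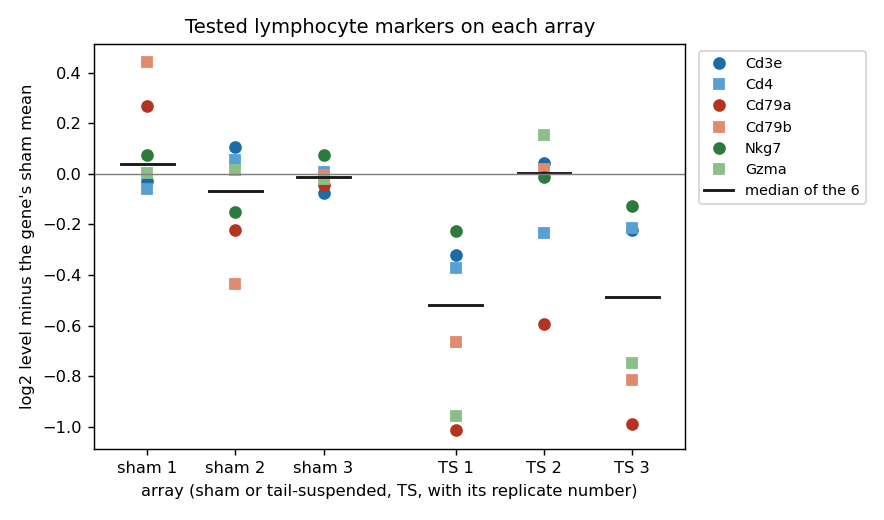
Log2 level of each readable marker on each array minus the sham mean of that gene, with the median of the 6 as a bar. The medians are near 0 on the sham arrays and the second tail-suspended (TS) array, and -0.52 and -0.49 on tail-suspended arrays 1 and 3.

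Further lymphocyte genes were read from lists that hold none of the 9. Of 22 T cell genes, 11 were tested, with 1 higher, 2 lower and a median log2 fold change of -0.19. Thy1, a surface protein of T cells that fibroblasts and neurons also carry, fell by 0.93 with an adjusted p of 0.00392 by limma. Bcl11b, a transcription factor of T cell identity, fell by 0.92 with an adjusted p of 0.0355 by limma. Zap70, the kinase that binds the phosphorylated CD3 and zeta chains, rose by 0.95 on the log2 scale with an adjusted p of 0.0227 by limma. The directions within the T cell list were therefore mixed. Thy1 made up 66.2% of the summed level of the list. Without it the sum was 1.56 to 1.82 in sham and 1.50 to 1.94 in tail-suspended hearts, and the groups overlapped. Lck, the kinase bound to CD4 and CD8, had a log2 fold change of -0.12 with a limma adjusted p of 0.779. Cd3d, the delta chain of CD3, was well above background on 3 of 6 arrays and could not be tested, and Cd247, the zeta chain, on 0 of 6. Of the CD3 and zeta chains read here, only Cd3e was thus readable on all arrays.

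Of 20 B cell genes, 17 were found by name and 11 tested, with 0 higher, 2 lower and a median of -0.16. At an unadjusted limma p under 0.05, 1 was higher and 4 lower. H2-Ob, a chain of the class II antigen-loading regulator of B cells, fell by 1.09 with an adjusted p of 0.032 by limma. It was well above background on all sham arrays but on 1 of 3 tail-suspended arrays, so the size of this fall rests in part on signal near background. H2-Ob entered the test through the sham arrays alone, and its direction is tied to that filter. Blnk, the linker below the B cell receptor that macrophages also express, fell by 0.72 with an adjusted p of 0.0179 by limma. Cd22, an inhibitory co-receptor, had a log2 fold change of -0.09 with a limma adjusted p of 0.649. Pax5, the transcription factor that defines the B lineage, and Igkc, the kappa light chain constant region, were well above background on 0 of 6 arrays, and Ighm, the heavy chain of IgM, was not matched by name. Cd74, which other antigen-presenting cells also express, made up 60.4% of the summed level. The sum of the list was 14.7 to 19.2 in sham and 9.54 to 15.8 in tail-suspended hearts, and the groups overlapped.

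Of 19 natural killer and cytotoxic cell genes, 6 were tested, with 0 higher, 1 lower and a median of 0.13. At an unadjusted limma p under 0.05, 1 was higher and 2 were lower. Klra8, an activating receptor from a family of near-identical genes whose reading is uncertain for that reason, fell by 2.13 with an adjusted p of 0.00194 by limma. Prf1, the pore-forming protein perforin, had a log2 fold change of 0.13 with a limma adjusted p of 0.513. Ccl5, a chemokine of cytotoxic and activated T cells, lay higher on all 3 tail-suspended arrays, with a log2 fold change of 0.64, and its limma adjusted p of 0.114 did not pass. Gzmm, granzyme M, named here after its values were seen because it made up 82.2% of the summed level of the list, lay lower on all 3, with a log2 fold change of -0.48 and a limma adjusted p of 0.0538. The defining receptors Ncr1 and Klrb1c were well above background on 2 and 0 of the 6 arrays, and Gzmb, granzyme B, on 0.

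Plasma cell genes gave 5 tested of 7, with 0 higher, 2 lower and a median of -0.45. Prdm1, a transcription factor of plasma cells that also acts in T cells and macrophages, fell by 1.97 with an adjusted p of 0.00231 by limma. Sdc1, a proteoglycan that epithelial cells carry as well, fell by 0.45 with an adjusted p of 0.0243 by limma. Igj, the joining chain of secreted antibodies, was well above background on 1 of 6 arrays. Of 8 thymocyte genes, 3 were tested, with a median of 0.12, and 0 passed, while 1, the lipid-presenting Cd1d1, also named after its values were seen, was lower at an unadjusted limma p of 0.0351. Rag1, a recombinase of developing lymphocytes, was well above background on 1 of 6 arrays and Dntt, the terminal transferase, on 4 of 6.

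Genes of lymphocyte homing and of all leukocytes had positive medians. Of 13 homing genes, 10 were tested, with 2 higher, 0 lower and a median of 0.19. Their directions were split, with 5 positive and 5 negative values. Cxcl12, named after its values were seen, made up 86.4% of the summed level of the list. It had a log2 fold change of -0.20 with a limma adjusted p of 0.372. Cxcl13, a chemokine that attracts B cells, was 1 of the 2 higher genes, but had no signal well above background in sham. It entered the test through the tail-suspended arrays alone, so only a bound is given, at least 6.04-fold higher there. S1pr1, a receptor that guides lymphocyte exit and is abundant on endothelium, rose by 0.63 with an adjusted p of 0.0193 by limma. All 10 pan-leukocyte genes were tested, with 2 higher, 0 lower and a median of 0.26. Ptprc, the CD45 phosphatase of all white cells, rose by 0.47 on the log2 scale with an adjusted p of 0.0425 by limma. Cd53, a leukocyte tetraspanin, rose by 0.88 with an adjusted p of 0.0168 by limma. The difference between these lists and the 9 markers was not tested.

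**Figure D5:**
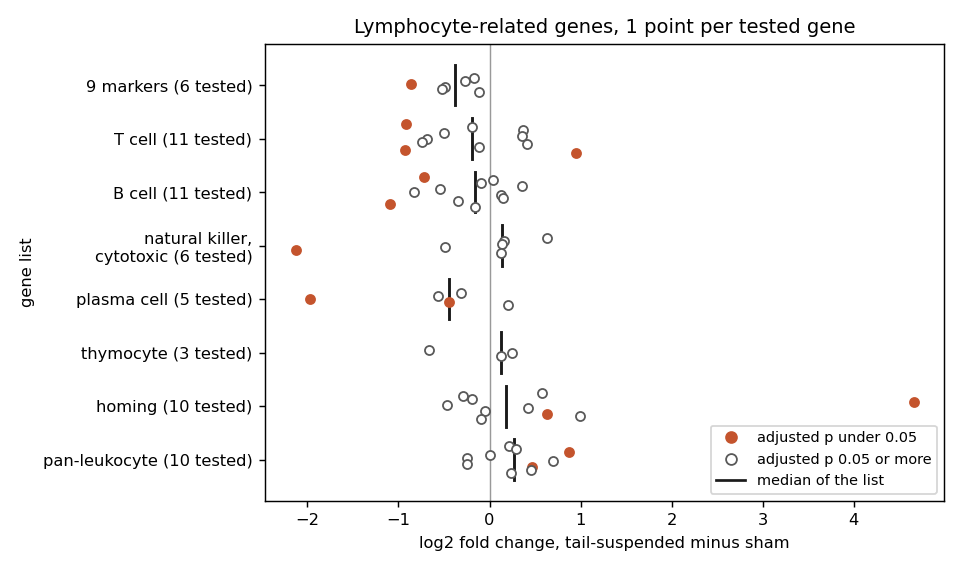
Log2 fold change (tail-suspended minus sham) of every tested gene of the 9 markers and of 7 related lists, with the median of each list as a bar and genes with a limma adjusted p under 0.05 filled. The medians of the markers, T cell, B cell and plasma cell lists are negative (-0.38, -0.19, -0.16 and -0.45), those of the natural killer and cytotoxic, thymocyte, homing and pan-leukocyte lists positive (0.13, 0.12, 0.19 and 0.26), and the point at 4.66 is Cxcl13, whose sham level is only a bound.

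Of 9 tested neutrophil genes, 6 were higher and 0 lower, among them S100a8, a calcium-binding protein of neutrophils, which rose by 4.80 with an adjusted p of 0.00706 by limma. Mpo, Retnlg and Ltf, also called higher and named after their values were seen, had 0 sham arrays well above background. They entered the test through the tail-suspended arrays alone. Of 13 tested macrophage and monocyte genes, 1 was higher, the scavenger receptor Cd163, and 1 lower, the chemokine receptor Cx3cr1. Cx3cr1 fell by 2.43 with a limma adjusted p of 0.0016. Cd163 had 0 sham arrays well above background and entered the test in the same way, so it is only a bound, at least 3.39-fold higher. The median of the macrophage and monocyte list was 0.60, with 10 of the 13 positive. At an unadjusted limma p under 0.05, 6 of its genes were higher and 1 lower. Cd68, a macrophage lysosomal protein, was well above background on 4 of 6 arrays and was not tested. Of the 9 tested dendritic and mast cell genes, 2 were higher and 1 lower. The higher ones, Flt3 and Cd209a, also named after their values were seen, were well above background on 1 of 3 sham arrays. They too entered the test through the tail-suspended arrays. Among connective tissue and vessel genes, Col1a1, a collagen chain, had a log2 fold change of -0.95 with a limma adjusted p of 0.0656, and Pecam1, an endothelial adhesion protein, one of 0.19 with an adjusted p of 0.291. Of 7 fibroblast genes 0 were higher and 1 lower, of 7 endothelial genes 1 was higher and 3 lower, and of 8 cardiomyocyte genes 0 were higher and 1 lower, cardiac actin Actc1, which fell by 0.33 on the log2 scale.

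Among 16289 genes well above background on all 6 arrays, the 5 whose level followed the mean of the 6 markers most closely over the arrays were P2rx6, 6430531B16Rik, Igtp, Irf1 and Retnla, with Pearson r of 0.99 to 1.00 over 6 arrays. They are the highest of 16289 values over 6 points, and are given as a description only. Their log2 fold changes were -0.62, -0.27, -0.51, -0.33 and -2.31, with limma adjusted p of 0.0632 to 0.136, and thus 0 of the 5 passed.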

How the data were processed

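The authors deposited 1 scanner file per array, in which Agilent Feature Extraction 10.7.1.1 gives each spot a background-corrected processed intensity and a call of well above background, and a table of log2 values for these arrays. In R 4.3.3, spots with an outlier call were left out, arrays were scaled to their 75th percentile, log2 was taken, and replicate spots were averaged within each probe. A probe was well above background if at least 50% of its spots were, and was tested if so on all arrays of either group. The 28030 tested probes of all 6 arrays were fitted with limma 3.58.1 (no covariates, Benjamini-Hochberg, threshold 0.05), by code tested on simulated data. The tested probe with the highest mean stood for its gene. Names that were a probe ID or a genome interval were not counted as genes. Symbols matched RefSeq (GRCm38.p6) for 9 of 9 markers and accessions for 12 of 13 probes, all but the readable Cd79a probe. Named genes were the markers, defining genes of each list, and genes of the lymphocyte lists past the threshold (up to 6 a list). 1 gene of the B cell list is not reported here and was left out of its counts. Markers, lists and tests were chosen with earlier results of these data known. A fold against a group below background is a bound, the bright group's mean over the limit on the other group's arrays. Alternatives covered background correction, scaling, filters, tests, blocks and each array left out. Intervals and p-values cover the spread between 3 mice per group.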

Additional observations from a re-analysis of the deposited data

How the results depend on the processing

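All 6 readable markers kept a negative log2 fold change under all 19 alternatives. Those that change only the test, the filter or the replicate block could not alter the sign, since they return the same log2 fold change. The count of markers past the threshold, 1 lower and 0 higher as reported, was as follows. With dim probes kept in, it was 0 lower and 1 higher, Cd8a, and probes counted 1041 higher and 790 lower against 3023 and 2683 as reported. With array weights 3 markers were lower, and 4355 probes. The methods' t-test gave 0 lower markers, 1532 probes higher and 1248 lower after Benjamini-Hochberg adjustment, and 2 markers, 4810 and 4696 probes at its own unadjusted threshold. A 2-fold minimum left 0 markers, 757 and 460 probes. The slide row as a block left 0 markers, 320 and 177 probes, and it rests on 1 tail-suspended array. With the replicate number as a block, 0 markers, 1714 probes higher and 1403 lower passed. For deviations from the group means, not levels, samples of the same number correlated at -0.02, -0.02 and 0.05, and those of different numbers at -0.08 to 0.10. These values show no pairing by number, but with 3 arrays per group they cannot exclude one. Leaving out 1 array at a time gave 0 to 2 lower markers, 1007 to 2885 probes higher and 748 to 2701 lower. The cause of these moves was not tested. Without the filter more probes were tested, and with 1 array left out fewer arrays were used. No block for the slide could be run, since all arrays share 1 slide, and averaging the tested probes of a gene left the values as they were, since each marker had 1. Signal over background limits Cd3g, Cd8a and Ms4a1 to a bound.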
